A study of Homo sapiens with 4 samples.

Results

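The enzymes that make thymidylate, the DNA-specific pyrimidine nucleotide, and that keep dUTP low were examined at the transcript level in K562 cells treated with clofarabine. The group was taken by gene symbol and holds 6 genes (TYMS, TK1, TK2, DUT, DTYMK and DCTD) of the 23615 in the deposited table, and all 6 were found and tested. K562 is an established human erythroleukaemia cell line, and clofarabine is a deoxyadenosine analogue that, once phosphorylated, inhibits ribonucleotide reductase and DNA polymerases. Total RNA was sequenced from 2 samples given 5 µM clofarabine in 0.005% DMSO, here called C0 and C1, and from 2 given DMSO alone, V0 and V1, all labelled 3 h. The letters C and V are all that the table says of a condition. They were taken to mean clofarabine and vehicle, and all directions would turn around if they meant the reverse.

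Thymidylate is made along a pair of routes. In the de novo route, DCTD deaminates dCMP to dUMP and DUT splits dUTP to dUMP, and TYMS, the target of fluorouracil, then methylates dUMP with a folate cofactor to give dTMP. In the salvage route, thymidine is phosphorylated to dTMP by TK1 in the cytosol or by TK2 in mitochondria, and DTYMK carries dTMP from either route on to dTDP. TYMS and TK1 are textbook genes of the G1/S transition, whereas TK2 is not tied to S phase. By removing dUTP, DUT also limits the uracil that polymerases build into DNA.

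Estimated fragments per library ran from 8370550 to 23888755, with C1 the deepest and V0 the shallowest. The 12 markers of K562, among them the fetal and embryonic globin genes HBG1, HBG2 and HBE1 and the transferrin receptor gene TFRC, had at least 10 fragments in every library, and together they made up between 26820 and 28260 CPM (fragments scaled by library size) in DMSO and between 25900 and 29150 CPM in clofarabine. That sum is mostly globin transcripts. By edgeR (adjusted p under 0.05), 2 of the 12 markers fell and 0 rose, where 121 of all 11761 tested genes fell and 181 rose. Both markers that fell are genes of erythroid transcription factors. NFE2 had a log2 fold change of −0.37 (edgeR adjusted p = 0.00196). Its call was lost on log2(FPKM + 1), from the authors' values per transcript length (limma-trend adjusted p = 0.0504). GATA1 had a log2 fold change of −0.25 (edgeR adjusted p = 0.0445). Its call was lost with upper-quartile scaling (edgeR adjusted p = 0.0658) and with DESeq2 (adjusted p = 0.0936). It was also lost on both FPKM scales used and without C0, V0 or V1. The part of NFE2 and GATA1 in the values below was not tested. The lymphoid genes CD8A, LCK and MS4A1 had no fragment in any library, while CD3D (15.7 to 18.5 CPM), EPCAM (70.7 to 75.8 CPM) and KRT8 (453 to 498 CPM) were present in every library. Summed over their lists and all libraries, markers of T cells (5 genes) ranged from 16.1 to 18.6 CPM, of B cells (3 genes) from 0.0759 to 0.795 CPM, of monocytes (3 genes) from 5.40 to 7.53 CPM and of epithelium (3 genes) from 528 to 569.5 CPM, with overlapping groups. Those of fibroblasts (3 genes, mostly COL1A2) were at 16.3 to 17.1 CPM in DMSO and 12.4 to 12.5 CPM in clofarabine. Whether this bears on any value below was not tested. Labels do not say whether the samples of a group came from separate cultures, so a p-value here reflects sample-to-sample spread that may be technical only.

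None of the 6 genes passed the test across all genes after 3 h. In bulk RNA such as this, fewer cells in a phase of the cycle and less RNA per cell cannot be told apart. edgeR's quasi-likelihood test called 302 of 11761 genes at an adjusted p under 0.05, which is 2.57%, and 0 of the 6 members. At an unadjusted p under 0.05 there were 2 members, TYMS and DUT, beside 14.2% of all genes. DESeq2 also called 0 of the 6, beside 166 genes in all, and limma-voom called 0, beside 296 in all. At an unadjusted p under 0.05 DESeq2 had 1 member and limma-voom 2. The share of all genes at that threshold was not computed for these tests. The members pointed both ways, with 3 positive and 3 negative log2 fold changes and a median of 0.027, against a median of 0.0020 over all genes tested. Clofarabine and DMSO libraries did not overlap in 4 of the 6 genes, where 43.2% of all tested genes showed no overlap. These were TYMS, DUT and DCTD (higher in clofarabine) and TK2 (higher in DMSO). In TK2 the separation was slight, with V0 at 14.248 CPM and C0 at 14.245 CPM. For scale, the smallest change that was called in any gene was 0.25 on the log2 scale in either direction, larger than the values of 5 of the 6 members and below that of TK2 in size.

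**Figure D1:**
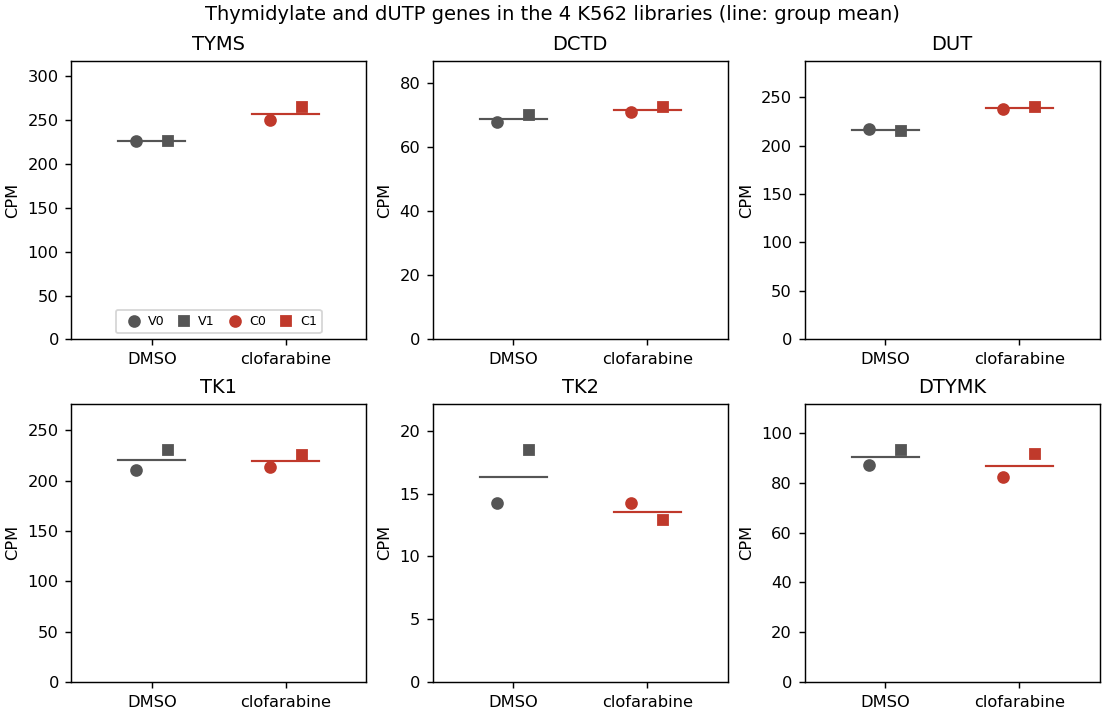
Normalised level (CPM, y axis from 0) of each gene in the DMSO libraries (grey) and the clofarabine libraries (red), with circles for C0 and V0, squares for C1 and V1 and a line at each group mean. TYMS and DUT stood slightly higher in both clofarabine libraries, at 250 and 264 CPM against 226 and 227 CPM for TYMS, while the groups of TK1 and DTYMK overlapped.

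TYMS, the methylating enzyme itself, had the smallest p of the group. Its level was 226 CPM in V0 and 227 CPM in V1, and 250 CPM in C0 and 264 CPM in C1. Both clofarabine libraries thus lay above both DMSO libraries, which were within 1 CPM of each other. The means were 226 ± 0.672 CPM (SD, n = 2) in DMSO and 257 ± 10.0 CPM (SD, n = 2) in clofarabine. The log2 fold change was 0.19 (SE 0.065, edgeR adjusted p = 0.158, unadjusted p = 0.00892), with a 95% interval from 0.052 to 0.32, that is from 1.04-fold to 1.25-fold. By p it stood at rank 663 of the 11761 genes, whereas the called genes end at an unadjusted p of 0.00126. The log2 fold change was 0.23 without C0, 0.14 without C1, 0.19 without V0 and 0.18 without V1. Of these fits, TYMS passed only in that without C0, the lower of the clofarabine values. In that fit many more genes passed in all than with 4 libraries.

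DUT, the dUTP pyrophosphatase, had close replicates in both groups, though in DMSO those of TYMS were closer. It was at 217 CPM in V0, 215 CPM in V1, 238 CPM in C0 and 239 CPM in C1, and the gap between the groups was many times the gap within either. Means were 216 ± 1.03 CPM (SD, n = 2) in DMSO and 239 ± 0.990 CPM (SD, n = 2) in clofarabine. The log2 fold change of 0.14 (SE 0.064) was not called (edgeR adjusted p = 0.312, unadjusted p = 0.0370), and its 95% interval ran from 0.0094 to 0.28. The SE is not that of these 4 values alone, because edgeR moderates each gene's spread with the spread of all genes. With any 1 library left out the value stayed between 0.13 and 0.15 and was not called. DUT makes a nuclear and a mitochondrial enzyme from alternative starts, which a value per gene does not separate. RefSeq lists 8 pseudogenes named after it and 2 named after TYMS, and how fragments that fit both a gene and a copy were treated is not stated in any source used here.

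DCTD, the dCMP deaminase, was nearly level. It stood at 67.7 CPM in V0, 69.8 CPM in V1, 70.8 CPM in C0 and 72.3 CPM in C1. The clofarabine libraries were the upper pair, but V1 and C0, of opposing groups, were closer to each other than the libraries within either group. The log2 fold change was 0.057 (SE 0.080, edgeR adjusted p = 0.826), and its 95% interval from −0.11 to 0.22 leaves room for changes up to 1.17-fold upward and down to 0.928 of the DMSO level.

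The promoters of TYMS and DUT are shown because, among the 11 RefSeq start windows of the 6 genes (each from 250 bases before to 50 after a start, GRCh38.p14), only 1 of TYMS and 1 of DUT held a motif of the E2F type. E2F factors drive many genes of the G1/S transition. The letters searched on both strands were TTTCCCGC, TTTGGCGC, TTTCGCGC and TTTGCCGC, and 3.31% of the 35116 windows of all genes held at least 1 of them. Each stretch is written 5′ to 3′ along the gene, and the capitals mark the match (GCGGGAAA is TTTCCCGC read on the opposite strand).
TYMS, chr18:657603-657632, plus strand: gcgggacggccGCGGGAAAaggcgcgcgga
DUT first match, chr15:48332144-48332173, plus strand: gggcggggctgGCGGGAAAtttcggttttg
DUT second match, chr15:48332159-48332188, plus strand: gaaatttcggtTTTGGCGCgctccctgcgg
The match in TYMS begins 39 bases before its start and those in DUT begin 42 and 27 bases before the start of the window concerned, which is 1 of 4 for that gene. The stretches of DUT overlap each other, so its matches lie side by side. No E2F-type letters were found in the windows of TK1, TK2, DTYMK or DCTD, which says only that these letters are not there.

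A CCAAT box, the motif bound by NF-Y, was found in 1 of 2 windows of TK1 and in the 1 window of DTYMK. It was in no window of TYMS, TK2, DUT or DCTD. The share of all windows with the letters CCAAT on either strand is not given here, so these counts have no background beside them. The stretches show that TK1 and DTYMK carry it more than once within 100 bases of the start concerned.
TK1 first match, chr17:78187114-78187140, minus strand: gccgggcgctgATTGGccccatggcgg
TK1 second match, chr17:78187083-78187109, minus strand: gccggctcgtgATTGGccagcacgccg
DTYMK first match, chr2:241686892-241686918, minus strand: cccggccccggCCAATcccttcgaatt
DTYMK second match, chr2:241686824-241686850, minus strand: gttgacgccggCCAATgggagctccgg
The matches of TK1 begin 77 and 46 bases before the start of the window concerned, and those of DTYMK 92 and 24 bases before its start. The CHR element TTTGAA, a motif of genes expressed late in the cell cycle and held by 15.2% of all windows, was found in 1 window of DUT and in none of the other members.

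TK1, the cytosolic thymidine kinase, did not differ between the groups beyond its spread. It was at 210 CPM in V0, 230 CPM in V1, 214 CPM in C0 and 226 CPM in C1. Both clofarabine values lay between the DMSO values. The means were 220 ± 14.2 CPM (SD, n = 2) in DMSO and 220 ± 8.37 CPM (SD, n = 2) in clofarabine. The log2 fold change was −0.0036 (SE 0.068, edgeR adjusted p = 0.994). Its 95% interval, from −0.14 to 0.14, corresponds to between 0.905 and 1.10 of the DMSO level. The sign of so small a value changed with the libraries used, from −0.065 without V0 to 0.058 without V1.

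TK2, the mitochondrial kinase, was the rarest transcript of the group and had the largest fitted difference. Its fragment counts were 121 in V0, 207 in V1, 189 in C0 and 298 in C1, so that counting alone gives a relative error of 9.09% in V0 and 5.79% in C1. Scaled by library, these are 14.2 CPM in V0, 18.5 CPM in V1, 14.2 CPM in C0 and 12.9 CPM in C1. Only V1 stood apart: V0 was above C0 by less than 0.01 CPM. The log2 fold change was −0.29 (SE 0.16, edgeR adjusted p = 0.421) with a 95% interval from −0.61 to 0.032. Without V1 it was −0.085 (edgeR adjusted p = 0.993) and without V0 it was −0.45 (edgeR adjusted p = 0.196), so its size was set by V1. TK2 was the member whose interval extended past a 1.5-fold change, to 0.655 of the DMSO level.

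DTYMK, the kinase shared by both routes, had overlapping groups. It stood at 87.4 CPM in V0, 93.2 CPM in V1, 82.3 CPM in C0 and 91.5 CPM in C1. The library C0 was the lowest and V1 the highest, with the others between them. The log2 fold change was −0.053 (SE 0.080, edgeR adjusted p = 0.841, 95% interval −0.22 to 0.11). It was 0.017 without C0 and −0.14 without C1. Among the members it has the shortest transcript as implied by the authors' columns, at the 10.0th percentile of the tested genes, and the ratio of C1 to C0 in CPM was higher there than in the other members. A trend on transcript length between the libraries was removed as an alternative, and the value was then −0.095 and not called.

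**Figure D2:**
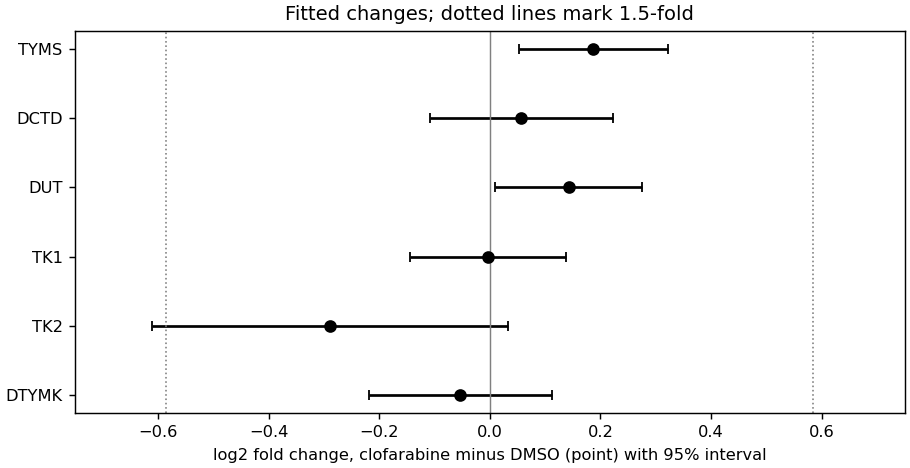
Fitted log2 fold change of each gene, clofarabine minus DMSO (points), with its 95% interval (bars), a solid line at 0 and dotted lines at a 1.5-fold change. The intervals of TYMS and DUT lie just above 0, those of the other 4 genes include it, and that of TK2 is the widest, from −0.61 to 0.032.

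**Figure D3:**
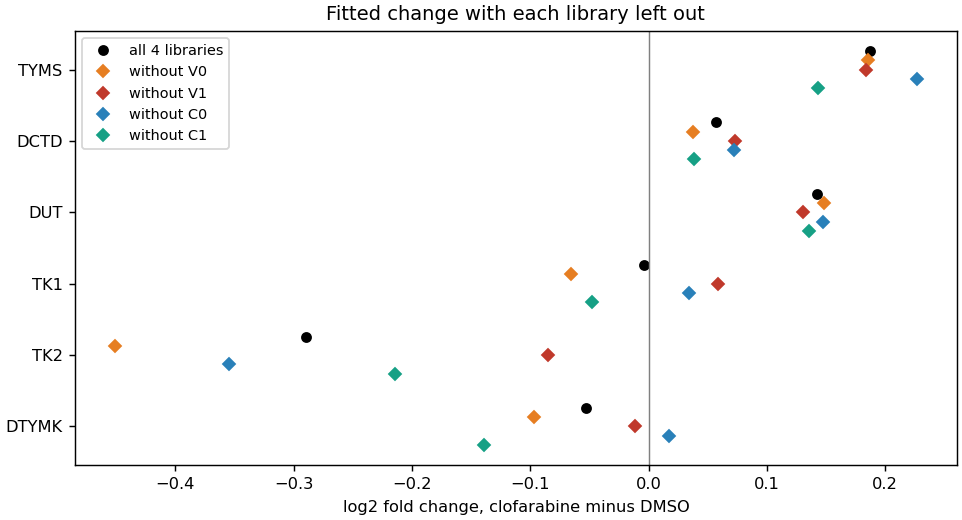
Log2 fold change of each gene with all 4 libraries (black circles) and with each library left out (coloured diamonds). TYMS and DUT stayed above 0 throughout, TK1 and DTYMK moved across 0, and TK2 ranged from −0.45 without V0 to −0.085 without V1.

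Levels of different genes were compared on the authors' FPKM scale, which divides by transcript length. TYMS was the most abundant, from 160 to 186 FPKM over the 4 libraries, followed by TK1 from 147 to 161 FPKM, DUT from 125 to 138 FPKM, DTYMK from 81.7 to 92.1 FPKM, DCTD from 36.3 to 38.6 FPKM and TK2 from 2.68 to 3.91 FPKM. The ranges of TYMS and TK1 overlapped, so these neighbours were not separated, while each later step in the order was larger than the spread of either gene. By mean FPKM, DUT was at the 93.4th percentile of the tested genes, with TYMS and TK1 above it, and TK2 at the 26.3rd. The cytosolic kinase exceeded the mitochondrial kinase 48.1-fold in V0, 41.1-fold in V1, 49.97-fold in C0 and 58.8-fold in C1.

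**Figure D4:**
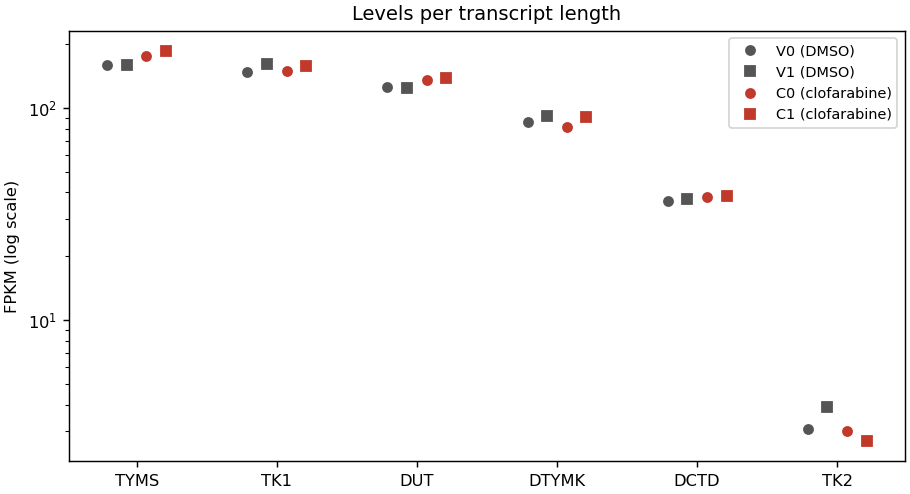
FPKM of each gene on a log axis, ordered by mean level, with DMSO libraries in grey and clofarabine libraries in red. The 4 libraries of a gene lie close together compared with the distance between DCTD (36.3 to 38.6 FPKM) and TK2 (2.68 to 3.91 FPKM), and TYMS and TK1 overlap.

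Ratios between members within a library do not depend on how libraries are scaled. TYMS per TK1, the enzyme of the de novo route over that of salvage, was 1.08 in V0, 0.992 in V1, 1.18 in C0 and 1.18 in C1 by FPKM. The ratio was higher in both clofarabine libraries, by 0.19 on the log2 scale. TYMS per DUT was 1.27 in V0, 1.28 in V1, 1.30 in C0 and 1.35 in C1, a difference of 0.054. For each of the 6 ratios computed the groups did not overlap, where 43.2% of all tested genes, taken singly, showed no overlap. The share over all pairs of genes was not computed. Several of the ratios share TYMS, so they are not independent of each other. Each had a 2-sided exact permutation p = 0.333, also after adjustment over the 6. That is the smallest that 2 libraries against 2 can give.

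For the genes around the members, strand matters because no source used here states the strand setting of the counting. In RefSeq the antisense genes ENOSF1 and TYMSOS (C18orf56 in the table) overlap TYMS. ENOSF1 had about as many fragments as TYMS, at 252 CPM in V0, 258 in V1, 263 in C0 and 258 in C1. Per transcript length it was less abundant, at 47.4 to 49.6 FPKM against 160 to 186 FPKM for TYMS. Its log2 fold change was 0.031 (edgeR adjusted p = 0.900). TYMSOS had between 53 and 139 fragments per library and a log2 fold change of 0.12 (edgeR adjusted p = 0.881). If fragments were shared between the strands, these values and that of TYMS would not be independent. None of the 8 neighbouring genes that could be tested was called.

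The folate cycle, which supplies the cofactor of TYMS, had 13 of 14 genes tested. Of these, 0 were called by edgeR, beside 2.57% of all genes. At an unadjusted p under 0.05 there were 3, beside 14.2% of all genes, and the median log2 fold change was 0.023. The serine hydroxymethyltransferases SHMT1 (0.023) and SHMT2 (−0.064) were near 0, the former with a sign that turned with library size alone as the scaling (−0.014).

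Among 27 tested genes of other nucleotide supply, interconversion and breakdown, 2 rose and none fell by edgeR, where 1.54% of all tested genes rose. Their median log2 fold change was 4.7e-04. RRM2, the small subunit of ribonucleotide reductase that feeds the dUDP and dCDP routes to dUMP, was at 327 CPM in V0, 322 CPM in V1, 435 CPM in C0 and 425 CPM in C1 (log2 fold change 0.40, edgeR adjusted p = 6.26e-04). UCK1, a uridine-cytidine kinase, rose from 28.1 CPM in V0 and 28.2 CPM in V1 to 40.9 CPM in C0 and 40.8 CPM in C1 (log2 fold change 0.54, edgeR adjusted p = 0.00429). The large subunit RRM1 had a log2 fold change of 0.099 (edgeR adjusted p = 0.607), which was 0.012 without C0, 0.018 without V1, 0.18 without C1 and 0.18 without V0. RRM2B, the alternative small subunit, had one of 0.27 (edgeR adjusted p = 0.241). It was 0.13 without C0, 0.17 without V1, 0.36 without V0 and 0.42 without C1, and was called only in the last of these (edgeR adjusted p = 0.0200) and with the replicate block (edgeR adjusted p = 0.0496). The dNTP hydrolase SAMHD1 had one of −0.068 (edgeR adjusted p = 0.881) and the nucleoside transporter SLC29A1 one of −0.12 (edgeR adjusted p = 0.492). Of the 5 genes of de novo pyrimidine synthesis 0 were called by edgeR, beside 2.57% of all genes. At an unadjusted p under 0.05 there were 0 of them, beside 14.2% of all genes. Their smallest p was that of UMPS, the enzyme that makes UMP (log2 fold change 0.11, edgeR adjusted p = 0.638; −0.0091 without C1).

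Genes that remove uracil from DNA, the step downstream of dUTP that DUT guards, had 3 of 11 rising, none falling and a median log2 fold change of 0.062. UNG, the main uracil-DNA glycosylase, was at 77.5 CPM in both V0 and V1, 98.1 CPM in C0 and 101 CPM in C1. The clofarabine libraries were clearly the upper pair, with a log2 fold change of 0.36 (edgeR adjusted p = 0.00830). MBD4, a glycosylase for thymine or uracil opposite guanine, rose by 0.39 on the log2 scale (edgeR adjusted p = 0.0145), and FEN1, the flap endonuclease of long-patch repair and of Okazaki fragments, by 0.26 (edgeR adjusted p = 0.0322). Without V1 none of the 3 was called, at log2 fold changes of 0.36 for UNG (edgeR adjusted p = 0.126), 0.43 for MBD4 (edgeR adjusted p = 0.0657) and 0.21 for FEN1 (edgeR adjusted p = 0.603). Without V0 the calls of MBD4 (0.36, edgeR adjusted p = 0.0984) and FEN1 (0.31, edgeR adjusted p = 0.110) were lost. MBD4 was also not called with DESeq2 (adjusted p = 0.0854), FEN1 with upper-quartile scaling (edgeR adjusted p = 0.0543), and none of the 3 on either FPKM scale. Over all 4 pathway lists 5 of 56 tested genes rose, where 1.54% of all tested genes rose. Without V1 the count was 2 of 56 beside 0.471% of all genes, and without C0 it was 7 of 56 beside 3.82%. The members were not compared with these lists by a test.

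**Figure D5:**
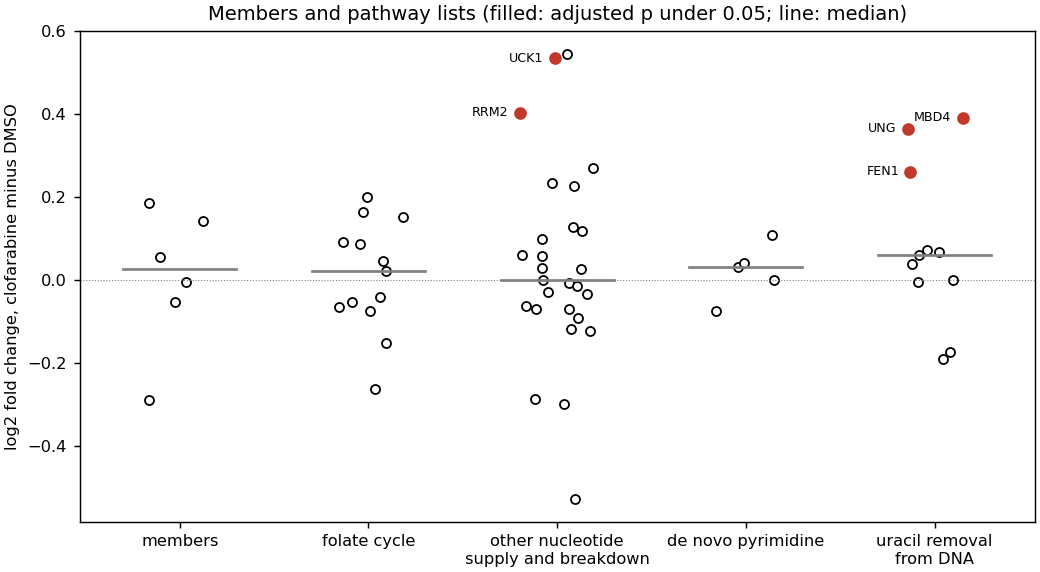
Log2 fold change, clofarabine minus DMSO, of the 6 members and of the tested genes of 4 pathway lists (1 point a gene, filled red where edgeR's adjusted p was under 0.05, grey line at the median, horizontal scatter for legibility). Filled points are RRM2, UCK1, UNG, MBD4 and FEN1, and no member is filled.

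For each member the tested genes with the most similar pattern were found by the Euclidean distance of centred log2 CPM over the 4 libraries, among 8481 genes with a mean of at least 10 CPM. The nearest were RAB13 and EIF3M to TYMS (distances 0.010 and 0.017), BZW1 and CC2D1A to DUT (0.0071 and 0.0086), COPS8 and AFMID to DCTD (0.0078 and 0.011), ZMYM3 and KLHDC3 to TK1 (0.0041 and 0.011), BPGM and GPD2 to DTYMK (0.010 and 0.012) and KDELC1 and OPLAH to TK2 (0.028 and 0.066). Such patterns were common: 514 genes lay within a distance of 0.1 of TYMS, 817 of DUT and 1009 of TK1, but 18 of TK2. AFMID is also the gene next to TK1 in RefSeq.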

How the data were processed

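RNA-seq of 4 K562 samples was analysed from the deposited gene table. The submitters' processing notes name cutadapt 1.5, TopHat2 2.0.13, Cuffdiff 2.2.1 and build hg19. No source used here states the annotation or the counting strand. The table gives estimated counts of fragments, a signal that the authors obtained by scaling these by library, and FPKM as computed by the authors. The table's library numbers could not be tied to the labels' replicate numbers, so each library stands only for its group.

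Estimated counts were rounded (no value of the 6 genes changed), filtered with filterByExpr (minimum count 10), scaled by TMM (factors 0.968 to 1.02) and tested with edgeR 4.0.16 in R 4.3.3 by the quasi-likelihood test, with group as the only term and Benjamini-Hochberg adjustment over all 11761 genes. The common biological coefficient of variation was 6.01%. SE is the log2 fold change over the square root of F, and 95% intervals use the test's degrees of freedom. CPM uses TMM-adjusted library sizes, except for marker genes (library totals). Totals of 8370550 to 23888755 fragments limit the precision of TK2 most. Libraries of a group differed by more than sampling noise (chi-square over degrees of freedom of 5.52 between C0 and C1 and 2.45 between V0 and V1). Alternatives used DESeq2 1.42.0, limma 3.58.1 (voom, and trend on log2(FPKM + 1) and log2(FPKM + 0.1)), other scalings, filters and thresholds, a loess trend on length (span 0.3), thinning to equal depth, a replicate block and each library left out, which assumes that the lone library of a group varies like the other group. The settings applied to the pathway lists and to GATA1 and NFE2 were chosen after seeing the data. Start windows, motifs with their printed coordinates, and neighbouring genes come from RefSeq (GRCh38.p14). The table is of hg19, so these were joined to it by gene symbol, and no coordinates of the 2 builds were combined. Protein sequences were not analysed here.

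The members, lists and tests were chosen with earlier results of these data known. Text names all members, and of each pathway list every called gene, or the gene of smallest p where none was called, plus RRM1, RRM2, RRM2B, SHMT1, SHMT2, SAMHD1, UNG and SLC29A1, the neighbours that overlap a member or were called, and the 2 nearest genes by pattern to each member. Some of the genes so chosen are not reported here. The markers of T cells, B cells, monocytes, epithelium and fibroblasts were counted in each library.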

Additional observations from a re-analysis of the deposited data

How the results depend on the processing

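With all 4 libraries, the count of 0 called members was found in each alternative except the replicate number as a block, which called 1, TYMS. With 1 library left out, TYMS alone passed, and only without C0. In that fit many more genes passed in all than in the main fit. The block rests on a number that libraries share in the table and nothing more: over genes, C0 minus C1 and V0 minus V1 had a correlation of −0.00383. With the block TYMS had a log2 fold change of 0.19 (edgeR adjusted p = 0.0312), 796 genes were called in all and 8 of the pathway lists. The signs of TYMS, TK2, DUT and DCTD held in all 16 alternatives. With 1 library left out, TK1 ran from −0.065 to 0.058, turning without C0 (0.034) and V1, and DTYMK from −0.14 to 0.017, turning without C0. UMPS ran from −0.0091 (without C1) to 0.20, SHMT1 from −0.062 (without V0) to 0.12, with −0.014 with library size alone, and SAMHD1 from −0.16 to 0.0096 (without V0), with 0.0013 without C0.

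Of the 302 calls over all genes, 59.9% were rises, 45.9% with library size alone, 33.9% on log2(FPKM + 1) and 37.5% on log2(FPKM + 0.1). The number called was 478 with no filter, 166 with DESeq2, 56 on log2(FPKM + 1), 72 on log2(FPKM + 0.1), 486 once a length trend was removed, 128 at an adjusted p under 0.01, 466 under 0.1, and between 130 and 636 with 1 library left out. The 5 calls of the pathway lists became 2 on either FPKM scale, 3 under 0.01 and 2 to 8 with 1 library left out. RRM2 and UCK1 were called in all 16 alternatives. For TK2, at 121 to 298 fragments, depth limits what could be seen.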
